A study of Mus musculus with 8 samples.

Results

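In mouse atria, CHD4 peaks covered the nuclear factor I (NFI) genes Nfia, Nfib, Nfic and Nfix more than most genes of similar length. Of their 151 sites called in both control libraries, 102 were also called in both libraries titled TBX5 KO, mostly with lower peaks. Peaks of 4 CHD4 ChIP libraries that shared at least 1 bp were joined into a single site. A site belonged to a member when it overlapped the gene body or the 10 kb on either side of it. This rule gave 276 of the 121267 sites, with 135 at Nfia, 96 at Nfib, 11 at Nfic and 34 at Nfix. A site had to be called in at least 1 library to be included, and the genes were chosen with results of these libraries known. Call patterns, widths and ranks are therefore given as a description, with no test of a difference between NFI sites and other sites.

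The mice of both groups had floxed Tbx5 alleles (TBX5 flox/flox), and AAV9 was injected at postnatal day 2. By the titles, which name no virus, 2 ChIP libraries came from control atria and 2 from TBX5 KO atria. The treatments named are AAV9:Nppa-EGFP and AAV9:Nppa-Cre, where Cre is the recombinase that removes DNA between loxP sites. EGFP is taken here as the control treatment and Cre as that of TBX5 KO, which the titles do not state. Nppa is expressed in cardiomyocytes of the atrium, so other cell types of the atrium were not the intended target. Right and left atria are named together as the tissue, the cell type is given as mixed, and neither the age at dissection nor pooling of animals is stated. The genotype and treatment labels of these samples contradict the titles by exchanging the groups, and the treatment text names CHD4 as the deleted gene. Every direction below follows the titles. Nothing states that replicates are separate animals, so SDs and p-values measure only how these libraries vary, which can be technical.

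NFI proteins bind DNA as dimers at a palindrome made of TTGGC and its reverse complement GCCAA around a short spacer, and a single arm of it can be bound more weakly. They open or maintain accessible chromatin in several lineages and act both as activators and as repressors. CHD4 is the helicase of NuRD, a complex that moves nucleosomes and also holds histone deacetylases, and it is found at active enhancers and promoters as well as at repressed genes. Nfia is best known for the start of gliogenesis, Nfib for maturation of lung and brain, Nfic for tooth root formation, and Nfix for the fetal switch of skeletal muscle.

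The control lists held 91520 and 99924 peaks and the TBX5 KO lists 61173 and 69557. In whole tissue, fewer cells that carry a site and less CHD4 per cell cannot be told apart. At the 5 atrial cardiomyocyte marker genes 16 of 31 sites in both control libraries were control-only, and at the 4 fibroblast marker genes 2 of 30. Over all sites the share was 24.9%. The 16 lay mostly at Bmp10 (9 of 11) and Myl4 (6 of 14), with 1 of 4 at Myl7 and none at the other genes of that list. At the endothelial markers the count was 8 of 40, at macrophage markers 5 of 11, and at epicardial, smooth muscle and glial or neuronal markers 1 of 8, 1 of 9 and 0 of 1. The single site of the last list allows no statement. The part of cell composition in the NFI values was not tested.

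Most NFI sites called in both control libraries were also called in both TBX5 KO libraries. Of 151 such sites, 102 (67.5%) were called in all 4 libraries, against 55.8% of the 68137 sites of the whole genome. Sites with a peak in each control library and no peak in the TBX5 KO libraries are termed control-only. There were 23 of them among the NFI sites, 15.2% of the 151 (Wilson 95% interval 10.4% to 21.8%, counting error only), against 24.9% of all sites. In lists cut to equal length the share was 4.30%, against 14.8% of all sites. A further 19 had a peak in TBX5 KO replicate 2 alone and 7 in TBX5 KO replicate 1 alone, beside 8759 and 4338 of the 68137 sites of the whole genome. In the other direction, 1 of the 109 NFI sites in both TBX5 KO libraries had no control call, against 1.91% of all such sites. The remaining NFI sites were called in 1 library (97), in a control and a TBX5 KO library (21) or in 1 control and both TBX5 KO libraries (6). Beside these counts of 276 NFI sites, those of all 121267 sites were 44019, 6475 and 1857.

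**Figure D1:**
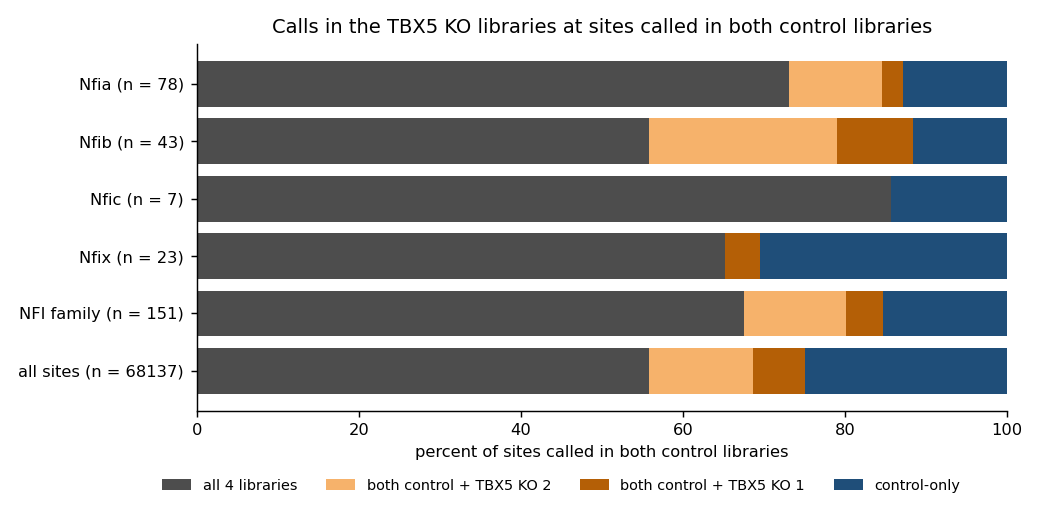
Bars divide the sites called in both control libraries (n beside each name) by their calls in the TBX5 KO libraries, in percent. The control-only part is 12.8% at Nfia, 11.6% at Nfib, 14.3% at Nfic and 30.4% at Nfix, against 24.9% of all sites.

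The control-only share ranged from 11.6% to 30.4% over the members. At Nfia 10 of 78 sites were control-only (12.8%, Wilson 7.12% to 22.0%), and 57 were called in all 4 libraries. At Nfib 5 of 43 were control-only (11.6%, 5.07% to 24.5%). There 24 (55.8%) were called in all 4, the same share as over all sites. The other 14 had a peak in only 1 TBX5 KO library, 10 in replicate 2 and 4 in replicate 1. Over the 68137 sites of the whole genome these counts were 8759 and 4338. Nfic had 1 control-only site of 7 (14.3%, 2.57% to 51.3%), with the other 6 in all 4 libraries. Nfix had 7 of 23 (30.4%, 15.6% to 50.9%) and 15 in all 4. The share at Nfix was the highest of the 4 at these settings, but it was 21.1% (4 of 19) at −log10 q of at least 3, against 26.4% of all sites, and 8.33% (1 of 12) at −log10 q of at least 5, against 29.1%. It was also 21.1% with the gene body alone, against 24.9%, and 0 of 11 in lists cut to equal length. The 4 intervals overlap. They treat sites as independent, and differences between the members were not tested.

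Control-only NFI sites were mostly weak in control, as control-only sites were over the whole genome. The rank of a site is the percentile of its −log10 p within its own list, averaged over the control lists. Control-only sites had a median percentile of 33.1 at Nfia, 18.1 at Nfib and 27.1 at Nfix, and the single one at Nfic had 16.2. Sites called in all 4 libraries had medians of 64.3, 72.3 and 89.3 at Nfia, Nfib and Nfix, and 84.9 at Nfic. Over all sites the medians were 36.8 for control-only sites and 77.6 for sites in all 4. In deciles 4 to 7 of control rank over all sites, 2 of 53 NFI sites (3.77%) were control-only, against 20.7% of all sites there. In deciles 1 to 3 the values were 20 of 57 (35.1%) and 52.8%, and in deciles 8 to 10 they were 1 of 41 (2.44%) and 2.72%. The lower share of control-only sites was found at weak and middle ranks, and the strongest NFI sites resembled other strong sites. Shares by decile would give 42.1 control-only sites over the family, 20.3 at Nfia, 13.7 at Nfib, 1.15 at Nfic and 6.97 at Nfix, beside the 23, 10, 5, 1 and 7 counted.

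Each member was set beside genes with a similar number of sites. Nfia had 78 sites in both control libraries, the second most of 15392 protein-coding genes with such a site, and Nfib with 43 stood at rank 50. Among the 16 genes whose number lay within 25% of that of Nfia, the median control-only share was 24.0%, and 1 gene was at or below 12.8%. None of those 16 reached the 73.1% of Nfia sites called in all 4 libraries, and their median was 50.8%. For Nfib, 12 of 104 such genes were at or below its control-only share (median 26.8%), and 40 had at least its share in all 4 libraries. For Nfic it was 609 of 1785 (median 25%), and for Nfix 212 of 332 (median 26%). Nfia and Nfib lay in the lower part of their range, while Nfic and Nfix did not stand apart from theirs. For Nfia this depended on the settings. With sites matched by summits within 250 bp its share was 23.2% (16 of 69), against 26.7% of all sites. At −log10 q of at least 5 it was 21.1% (12 of 57), against 29.1%. With 50% overlap it was 17.4%, against 24.3%, and at −log10 q of at least 3 it was 11.4%, against 26.4%. Member sites in both control libraries had a median control percentile of 60.2 at Nfia, 45.3 at Nfib, 72.7 at Nfic and 40.5 at Nfix. It was 61.4 over all sites, and 55.7, 56.4, 62.7 and 56.3 in the genes with a similar number of sites. At or above the member were 4 of 16, 91 of 104, 421 of 1785 and 314 of 332 genes.

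**Figure D2:**
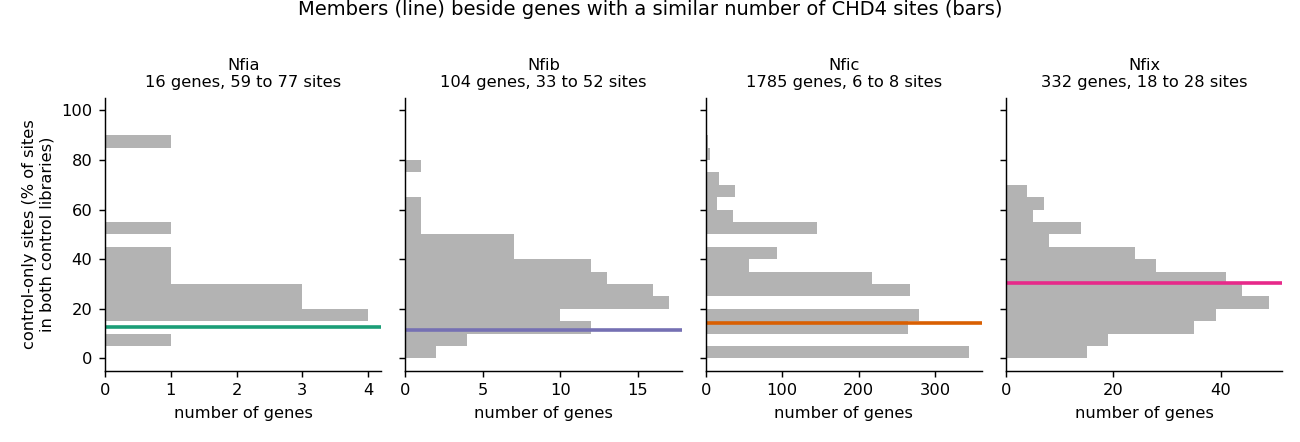
Grey bars count protein-coding genes by their percentage of control-only sites, for genes whose number of sites in both control libraries is within 25% of the member's, and the coloured line is the member. Nfia (12.8%) and Nfib (11.6%) lie below most of the bars, and Nfix (30.4%) lies near their middle.

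CHD4 peaks covered an unusually large part of the NFI gene bodies. At Nfic, a gene of 35.7 kb, peaks lay over 95.1% and 93.7% of the body in control replicates 1 and 2 and over 82.4% and 89.1% in TBX5 KO replicates 1 and 2. Of 2765 protein-coding genes of similar length (within 25%), 1 was covered at least as much in control and 0 in TBX5 KO, by mean of the libraries. At Nfix, a gene of 96.5 kb, the coverage was 73.0% and 61.8% in control and 47.2% and 56.6% in the TBX5 KO libraries. The median of its 1548 genes of similar length was 2.92% in control and 1.73% in TBX5 KO, with 2 and 0 genes at or above Nfix. At Nfib, of 217 kb, it was 38.4% and 37.8% against 17.5% and 21.0%. Of 648 genes of similar length, 8 reached its control mean and 10 its TBX5 KO mean. At Nfia, of 541 kb, it was 33.6% and 30.9% against 16.5% and 21.6%, and none of 208 genes reached it in either group. At each of the 4 genes both TBX5 KO libraries were below both control libraries, and both stayed far above the median of genes of similar length. Those medians were also lower in TBX5 KO than in control. They were 0.928% in control and 0.398% in TBX5 KO for Nfia, 2.37% and 1.10% for Nfib, and 3.34% and 2.22% for Nfic. How many of those genes had both TBX5 KO libraries below both control libraries was not counted.

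**Figure D3:**
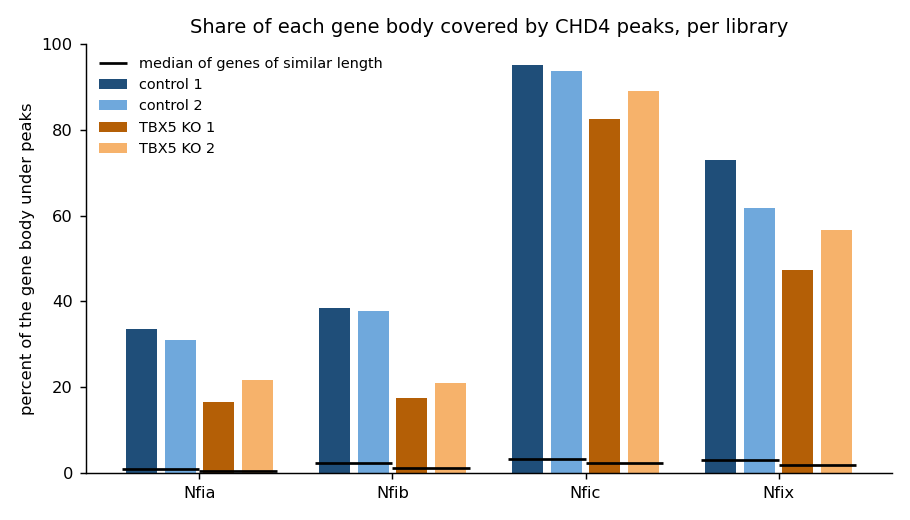
Bars give the percent of each gene body under CHD4 peaks in each library, and black lines the median of protein-coding genes of similar length in the same group. Nfic keeps 82.4% and 89.1% in the TBX5 KO libraries, whereas Nfib goes from 38.4% and 37.8% to 17.5% and 21.0%.

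The covered length fell most at the long genes. Within the windows of the 4 genes, peaks covered 402 and 379 kb in control and 222 and 274 kb in the TBX5 KO libraries, or 391 ± 16.4 against 248 ± 36.6 kb (SD, n = 2 each). The TBX5 KO over control ratio was 0.635, against 0.572 for the peaks of the whole lists. It was 0.531 at Nfib, 0.591 at Nfia, 0.751 at Nfix and 0.812 at Nfic. A two-sided exact permutation test over the 4 libraries gave p = 0.333 for the family, the smallest p that 2 against 2 libraries can give, so this design cannot reach 0.05.

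Numbers of peaks changed less than covered length. The family had 262 and 261 peaks in control and 233 and 256 in the TBX5 KO libraries, a ratio of 0.935, against 0.683 for the whole lists. The direction turned in lists cut to equal length, with means of 152 in control and 226 in TBX5 KO libraries. Nfib had 78 and 75 peaks in control and 61 and 66 in the TBX5 KO libraries. Nfib was the only member with fewer peaks in both TBX5 KO than in both control libraries, which held for 35.7% of protein-coding genes with a site. At Nfia the numbers were 142 and 129 against 115 and 138, at Nfic 8 and 15 against 18 and 13, and at Nfix 34 and 42 against 39 and 39. Those 3 sets of values overlap between the groups. Counted as sites, which join neighbouring peaks, the family had 215 and 195 called in control and 134 and 147 in the TBX5 KO libraries, a ratio of 0.685, against 0.621 for all sites.

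Wide NFI sites were split into more peaks in the TBX5 KO libraries. Of the 276 sites, 23 spanned at least 5 kb (8.33%, against 1.60% of all sites), and 6 spanned at least 10 kb (2.17%, against 0.241%). All 23 were called in all 4 libraries, as were 1922 of the 1940 sites of that span over the whole genome. The 23 held on average 2.09 and 2.74 peaks per site in control and 3.91 and 4.04 in the TBX5 KO libraries. At 12 of the 23 (52.2%) both TBX5 KO libraries had more peaks than both control libraries, against 34.2% of all sites of at least 5 kb called in all 4 libraries. Over all 102 NFI sites called in all 4 the count was 16 (15.7%), against 4.46% of all such sites. These 16 include the 12 wide sites, and wide sites made up a larger share of NFI sites than of all sites.

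**Figure D4:**
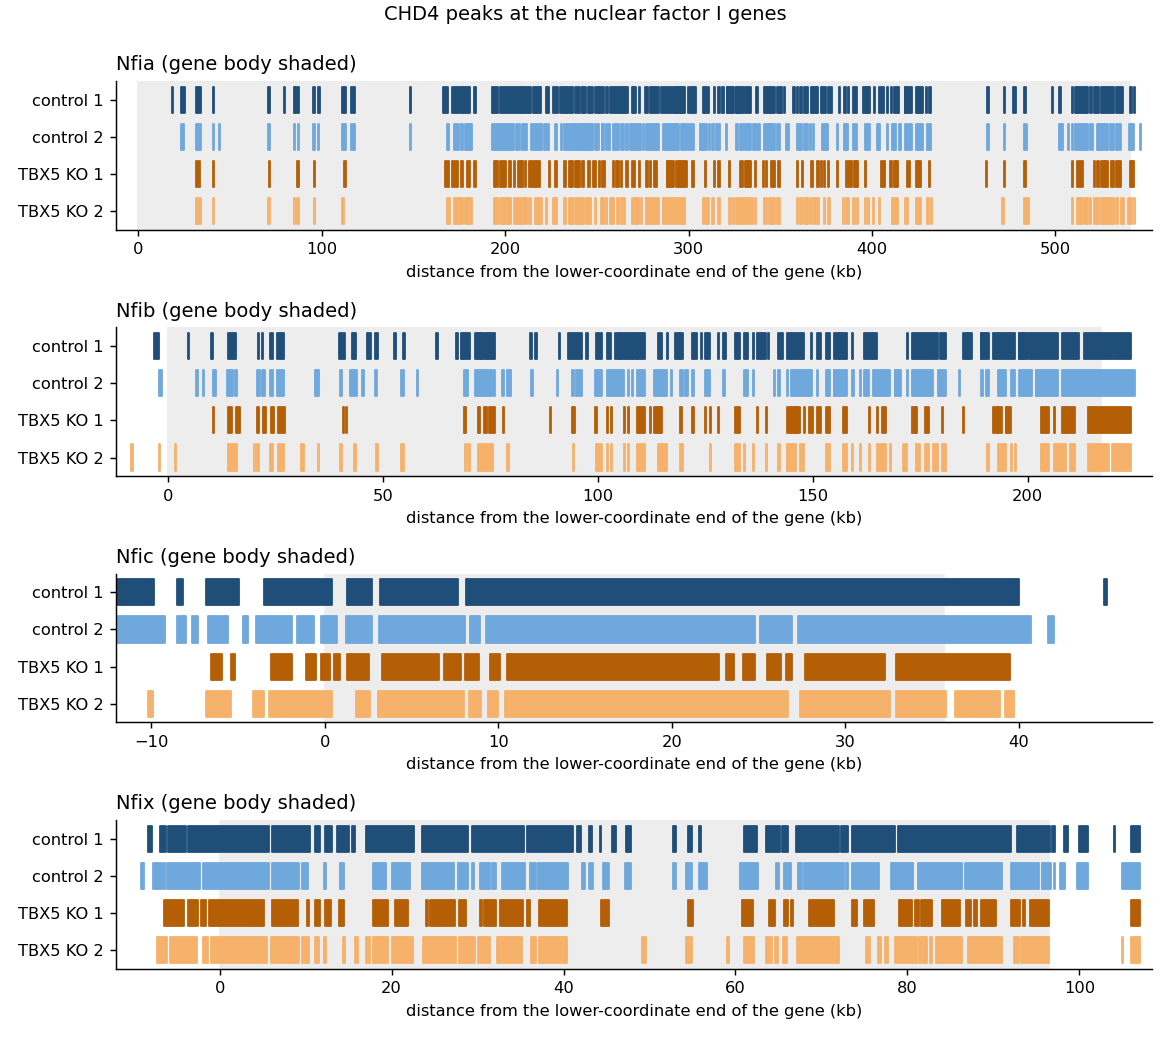
Blocks are CHD4 peaks in each library, placed by distance in kb from the lower-coordinate end of each gene, with the gene body shaded. Nfic is nearly filled in all 4 libraries, and the wide control blocks of Nfix and Nfib are broken into shorter ones in the TBX5 KO libraries.

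Nfia (chromosome 4, 97578066 to 98118876, build mm10) held its strongest and widest site inside the gene, at 97771404 to 97786811, which ranked 66th by span among all sites. Its peaks summed to 14856 and 14179 bp in control and 8390 and 11211 bp in the TBX5 KO libraries. The pileup, the number of fragments over the summit, follows from the deposited fold and −log10 p, and was 251 and 258 in control and 129 and 161 in the TBX5 KO libraries. Over the median background of each library this was 23.4 and 22.1 in control and 11.9 in each TBX5 KO library. The deposited folds of 16.6 and 10.1 in control differed between replicates more than the pileups did, and the local background there was 14.1 and 24.8.

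Control-only counts differed between the part of Nfia below that site and the part above it, a split chosen after the values were seen. Of 15 sites in both control libraries from the lower end of the gene to the widest site, 6 were control-only, against 4 of 63 from the widest site to the upper end. The strongest control-only site of the family lay in the lower part, at 97602334 to 97603042. Its pileup was 80.0 and 78.0 in control, its control percentile 85.8, and neither TBX5 KO library had a peak. It was the only control-only NFI site in deciles 8 to 10. The single TBX5 KO-only site lay near the upper end, at 98098581 to 98099146, with folds of 2.38 and 2.46.

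RefSeq starts are shown for the members found in the RefSeq table of GRCm38.p6, the assembly behind mm10, as the 250 bases before the start, so that calls can be set beside sequence. Letters were searched on both strands for the NFI palindrome, its single arm TTGGC, the T-box core AGGTGT, the GATA core AGATAA and CCAAT, of which TTGGC and CCAAT share letters (CCAAT reads ATTGG on the other strand) and can overlap. Among 32841 promoters of this length these were found in 0.0365%, 41.5%, 11.8%, 9.99% and 33.9%. Capitals below mark matches to any of them. The table lists 4 Nfix starts, and the sequence before the one at 84773410 (GC content 52.4%, 7 CpGs, a CCAAT match) is not printed.
Nfia, chr4:97581693-97581942, plus strand: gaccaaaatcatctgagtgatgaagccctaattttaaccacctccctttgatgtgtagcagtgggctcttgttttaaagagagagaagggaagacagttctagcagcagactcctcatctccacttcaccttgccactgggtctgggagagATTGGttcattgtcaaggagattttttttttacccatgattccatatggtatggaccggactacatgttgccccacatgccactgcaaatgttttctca
Nfic, chr10:81427174-81427423, minus strand: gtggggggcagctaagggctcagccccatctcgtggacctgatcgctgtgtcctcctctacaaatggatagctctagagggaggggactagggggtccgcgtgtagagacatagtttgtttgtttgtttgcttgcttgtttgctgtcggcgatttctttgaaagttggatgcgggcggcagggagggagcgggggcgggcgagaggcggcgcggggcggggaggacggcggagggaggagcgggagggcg
Nfix, chr8:84780083-84780332, minus strand: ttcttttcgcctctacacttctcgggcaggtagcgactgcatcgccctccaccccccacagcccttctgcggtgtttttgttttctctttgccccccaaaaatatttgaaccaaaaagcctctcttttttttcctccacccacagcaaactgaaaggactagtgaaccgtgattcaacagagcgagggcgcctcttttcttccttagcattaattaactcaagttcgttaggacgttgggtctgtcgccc
Nfix, chr8:84775829-84776078, minus strand: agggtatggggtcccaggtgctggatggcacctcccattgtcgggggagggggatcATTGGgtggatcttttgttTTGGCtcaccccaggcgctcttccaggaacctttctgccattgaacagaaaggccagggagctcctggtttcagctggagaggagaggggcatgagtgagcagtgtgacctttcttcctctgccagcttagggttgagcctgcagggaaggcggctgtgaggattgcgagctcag
Nfix, chr8:84772876-84773125, minus strand: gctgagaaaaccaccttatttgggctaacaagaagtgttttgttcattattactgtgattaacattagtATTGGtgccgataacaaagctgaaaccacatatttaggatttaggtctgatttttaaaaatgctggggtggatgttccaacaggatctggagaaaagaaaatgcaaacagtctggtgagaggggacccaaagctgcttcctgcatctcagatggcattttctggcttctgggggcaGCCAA

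No site of any library lay over the listed start of Nfia, and the nearest one, called in control replicate 1 alone, was 14.2 kb away. The summit of the strongest Nfia site in control replicate 1 lay 190.3 kb downstream of that start. No other start of Nfia was listed, so whether this or another site covers a different start of the gene was not examined. The Nfia sequence had a GC content of 44.8% and 1 CpG, the Nfic sequence 63.2% and 19 CpGs, and the 3 Nfix sequences 49.2%, 58.4% and 42.0% with 11, 4 and 1 CpGs, against medians of 52.4% and 6 over all promoters. None held the NFI palindrome, the T-box core or the GATA core in these letters. The single arm TTGGC was found in the last 2 Nfix sequences shown, and CCAAT in those and in the Nfia sequence. A match or its absence here is a description of these letters only.

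Nfib (chromosome 4, 82290173 to 82506751) had its strongest site over its higher-coordinate end, at 82502161 to 82515056. The peaks there covered 11000 and 12896 bp in control and 8366 and 9338 bp in the TBX5 KO libraries. Pileup relative to background came to 21.4 and 19.7 in control and 11.0 and 10.8 in the TBX5 KO libraries. The neighbouring site at 82492430 to 82502135 had 10.3 and 8.04 in control and 4.04 and 4.79 in the TBX5 KO libraries, a ratio among the 3 lowest of the family. At both sites the groups were apart. Of the 5 control-only sites of Nfib, 3 lay next to each other at 82488513 to 82492250, beside these 2 wide sites, and the strongest of them reached a control percentile of 29.9.

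Nfic (chromosome 10, 81396191 to 81431919) lay mostly under a single site of 32637 bp at 81404297 to 81436933, the 6th widest of all 121267 sites, which also covers the listed start. It was 1 peak of 31862 bp in control replicate 1, and 4, 9 and 7 peaks in control replicate 2 and TBX5 KO replicates 1 and 2. These peaks summed to 31372, 27104 and 28940 bp. Its pileup relative to background came to 18.4 and 15.8 in control and 12.3 and 10.4 in the TBX5 KO libraries. The percentile within the list was 99.3 and 99.0 in control and 99.8 and 99.2 in the TBX5 KO libraries. Of the 11 Nfic sites, 9 also fell in the windows of Smim24, Gm48552, Dohh or Fzr1, so the calls there cannot be given to Nfic alone. All 7 sites in both control libraries, behind the shares given for Nfic, are among the shared ones. The strongest site of those flanks, at 81383624 to 81386973, went from 2709 and 3311 bp in control to 710 and 1212 bp in the TBX5 KO libraries. It lies across the 10 kb edge of the Nfic window, mostly outside. These widths include the outer part, and no peak of TBX5 KO replicate 1 at this site reached into the window.

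Nfix (chromosome 8, 84704712 to 84801238) held 3 sites of over 10 kb, and each was called in all 4 libraries. The widest, at 84778276 to 84796736, covers the first Nfix start shown above. Its peaks summed to 18154 and 15232 bp in control and 9686 and 11965 bp in the TBX5 KO libraries, split into 2 and 4 peaks in control and 9 and 8 in the TBX5 KO libraries. Pileup relative to background there came to 10.2 and 9.32 in control and 4.87 and 5.53 in the TBX5 KO libraries. The strongest, at 84728214 to 84740234, had 12.6 and 8.72 in control and 6.25 and 6.64 in the TBX5 KO libraries. The site at 84771694 to 84777861, which covers the other 3 of the 4 Nfix starts in the RefSeq table, had 7.74 and 7.01 against 5.24 and 4.79. The other site of over 10 kb, at 84696913 to 84710476 over the lower-coordinate end, had 10.5 and 7.35 in control and 6.71 and 6.78 in the TBX5 KO libraries. The groups were apart at all 4 sites. Of the 7 control-only sites, 4 lay inside the gene between 84747729 and 84761450, and 3 lay beyond its higher-coordinate end between 84801517 and 84805335. The windows of Lyl1, Nacc1, Trmt1 and Dand5 share 7 of the 34 Nfix sites, and none of the control-only sites is among the shared ones.

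At the 102 NFI sites called in all 4 libraries, pileup over background was lower in the TBX5 KO libraries, by about as much as at other sites. The median over these sites was 5.09 and 4.62 in control and 3.49 and 3.61 in the TBX5 KO libraries, or 4.85 ± 0.330 against 3.55 ± 0.0869 (SD, n = 2 each). Both TBX5 KO libraries were below both control libraries at 85 of the 102 sites (83.3%), against 78.6% of all sites called in all 4, and above both at 1. The median ratio per site was 0.731 in the family and 0.696 over all sites. By member it was 0.680 at Nfib, 0.70 at Nfic, 0.731 at Nfia and 0.758 at Nfix. Within bands of control rank the ratio was near that of all sites, with 0.786 and 0.804 in deciles 1 to 7, 0.651 and 0.640 in deciles 8 and 9, and 0.584 and 0.583 in decile 10. The ratio per site ran from 0.430 to 1.08.

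**Figure D5:**
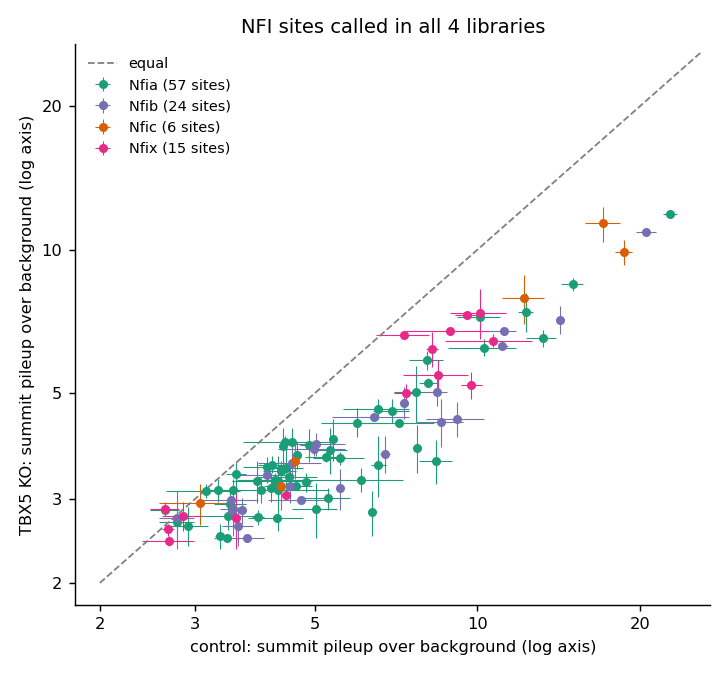
Each point is an NFI site called in all 4 libraries, with the mean summit pileup over background in control (x) and TBX5 KO (y) on log axes, and lines reach to the values of the 2 libraries. Of the 102 sites, 85 have both TBX5 KO values below both control values, and the ratio of TBX5 KO to control runs from 0.430 to 1.08.

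Widths at the same 102 sites were lower too. The median summed width of the peaks in a site was 1960.5 and 1983 bp in control and 972 and 1243 bp in the TBX5 KO libraries, against 1257, 1142, 786 and 908 bp over all sites called in all 4. Both TBX5 KO libraries were narrower than both control libraries at 64 sites (62.7%, against 57.3% of all sites) and wider at 1. The median ratio of widths per site was 0.684 in the family, 0.522 at Nfib, 0.675 at Nfia, 0.815 at Nfic and 0.869 at Nfix, against 0.747 over all sites. At Nfix the medians of 3903 and 3512 bp in control and 2851 and 3862 bp in the TBX5 KO libraries overlapped between the groups.

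The outermost member sites give the values at the edge of the rule. At Nfix the last site inside the upper window lay 9.41 kb from the gene end and the first outside 10.9 kb, both called in all 4 libraries. At Nfib the first site outside the upper window lay 10.1 kb from the end and was called in both control libraries and TBX5 KO replicate 1. At Nfia the upper side had its last site inside at 5.69 kb, called in control replicate 2 alone, and the first outside at 23.3 kb, called in all 4. At Nfic the last inside the lower window lay 9.22 kb away and was called in all 4, and the first outside lay 12.8 kb away. That last Nfic site lies across the window edge, and its call in TBX5 KO replicate 1 came from outside the window.

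Other long families of transcription factor genes were counted in the same way, beside a control-only share of 24.9% over all sites. At the forkhead P genes 13 of 77 sites in both control libraries were control-only (16.9%, Wilson 10.1% to 26.8%), with 10 of 59 at Foxp1, 0 of 9 at Foxp4 and 3 of 7 at Foxp2. At the TEAD genes of the Hippo pathway the count was 12 of 49 (24.5%, 14.6% to 38.1%), with 10 of 36 at Tead1. At the MEF2 genes, which encode MADS-box factors of muscle, it was 23 of 60 (38.3%, 27.1% to 51.0%), with 13 of 29 at Mef2a and 7 of 17 at Mef2c. The differences between these lists and the NFI genes were not tested.

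Genes linked to NFI in other tissues had a control-only share near that of all sites. The list of 20 genes holds regulators and partners such as Sox9 and Notch1, targets in glia such as Gfap and Slc1a3, and partners in fat and muscle such as Pparg and Ebf2. Of these genes, 18 had a site in both control libraries, and 30 of their 130 sites were control-only (23.1%, Wilson 16.7% to 31.0%). At Notch1, a receptor gene upstream of Nfia in gliogenesis, 1 of 17 sites was control-only. At Ebf2, which encodes a factor that works with NFIA in brown fat, it was 10 of 17.

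The genes whose calls were most like those of each member were chosen by the summed difference, in percentage points, of the shares of sites with no TBX5 KO call, a call in either replicate alone and a call in both. For Nfia these were Gse1 (12 of 76 control-only, difference 19.8) and Foxp1 (10 of 59, difference 24.1). For Nfib they were Arhgef3 (5 of 37, difference 7.79) and Igf1r (7 of 45, difference 7.86). For Nfix they were Afap1 (8 of 24, difference 5.80) and Rai1 (6 of 19, difference 8.70). For Nfic, with 7 sites, Tmem212 and Plin3 had the same counts, 1 control-only and 6 in all 4. Other genes had these counts too, and among such ties the genes with the nearest mean control percentile were taken. The likeness is over 4 libraries.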

How the data were processed

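The members and lists were chosen with earlier results of these data known. The 4 peak lists were called per library from ChIP and input reads, per the labels, with MACS2 and DiffBind named without versions and build mm10, per the submitters' processing notes. Aligner and filters: not given in the sources used here. For each peak the authors deposited a fold (a ratio of pileup to local background), −log10 p, −log10 q (lowest 1.30 to 1.31) and a score that is 10 times −log10 q, cut to a whole number, in 99.96% to 100.00% of peaks.

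Peaks were merged at 1 bp. A RefSeq table (GRCm38.p6) gave gene positions, with 21887 protein-coding genes, and all 4 members and 56 of 56 list genes matched. Pileup and local background were solved from fold and −log10 p under a Poisson model with whole pileups, which succeeded for at least 99.979% of peaks of each list (tolerance 0.002), and were divided by the median background of the library (10.7 to 13.6). Merging and recovery were tested on simulated data. Read depth is unknown from the lists. Values of 2 libraries per group were compared with exact permutation tests.

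Named genes were the members, genes sharing their sites, the 2 most similar genes per member and up to 3 genes per list with the most sites. Alternatives were other thresholds, lists of equal length, other overlaps and gene windows, leaving out each library, pairing and exchanged groups. RefSeq promoters were found for 3 of the 4 members. Python 3.11.15, pandas 2.3.3, scipy 1.17.1 and statsmodels 0.14.6 were used.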

Additional observations from a re-analysis of the deposited data

How the results depend on the processing

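The share of control-only NFI sites stayed between 13.2% and 20.3% at −log10 q of at least 3 or 5, with 50% overlap or summits within 250 bp, with the gene body alone or plus 50 kb, and with the gene of the nearest end, against 24.3% to 29.1% of all sites. In lists of equal length it was 4.30% (4 sites against 23), beside 14.8% of all sites. With a library left out it ranged from 19.9% to 32.6% by construction, since fewer libraries meet the pattern more often: 29.2% (36.0% of all sites) without control replicate 1, 32.6% (39.9%) when control replicate 2 was dropped, 19.9% (31.3%) when it was TBX5 KO replicate 1, and 27.8% (37.8%) when it was TBX5 KO replicate 2. By summits 16 of 69 sites of Nfia were control-only (23.2%, against 26.7% of all sites) in place of 10 of 78. With the groups exchanged, as the genotype labels have them, the share was 0.917%, beside 1.91% of all sites.

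The TBX5 KO minus control difference in peaks was -17.0 and turned to 74.0 in lists of equal length (152 against 226), where the longer control lists lose their weak peaks; the cause was not tested further. It was -28.5 to -5.50 with a library left out, the first value without TBX5 KO replicate 2 and the second when replicate 1 was dropped. The difference in covered length was -169 to -117 kb with a library left out and -92.3 kb in lists of equal length, and that in median width was -223 to -123 bp with a library left out and -829.8 bp in lists of equal length (main value -173 bp). The median percentile of member sites was 45.2 in control and 47.0 in TBX5 KO lists, and the difference turned to -3.83 in lists of equal length and ranged from -0.997 (without TBX5 KO replicate 2) to 4.62 with a library left out; the cause was not tested. Taken over peaks in place of sites, the median percentile was 43.7 and 46.1 in the control lists against 39.9 and 39.8 in the TBX5 KO lists, the opposite direction. The difference in pileup over background was -1.53 to -1.07 with a library left out.

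The replicate numbers do not pair the libraries in the labels, and deviations of the first replicates from their group means had a correlation of -0.0276 over 16191 genes. With a replicate block the difference in peaks was -17.0 and in covered length -143 kb, with an exact sign-flip p of 0.5, the smallest that 2 pairs allow. The lists give no read depth, and a site without a call may be bound below the threshold.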
